A study of Mus musculus with 15 samples.

Results

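The Slc25 family, most of whose members carry metabolites across the inner mitochondrial membrane, was compared between the hearts of 3 kinds of male mice. Members were taken as every gene whose annotated symbol begins with Slc25a, which gave 44 of the 18190 genes named on the array. Of the probe sets of a gene, the one brightest on average over the 15 arrays was used, and the others served as a check. Of the 44, 39 lay above the filter on dim probe sets, which kept 13110 genes in all. The 5 below it were Slc25a18, Slc25a31, Slc25a41, Slc25a48 and Slc25a54. Family genes without a probe set of a single symbol were not analysed here.

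The groups were B6C3F1 mice (B6C3F1/J, the first-generation cross of the other two), C3H mice (C3H/HeJ) and C57Bl/6 mice (C57BL/6J), with 5 mice and 5 arrays each. Every mouse was male and 9 to 10 weeks old, and every mouse had carried a radiotelemetry transmitter in the abdomen since surgery at 7 weeks, with no other treatment. RNA came from the heart apex and 50 ng of it was amplified in a 2-cycle labelling reaction. The study set gene expression beside heart physiology and pathology in the same strains.

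Carriers of this family share a fold of repeated membrane-spanning segments with the binding site in the middle, and most exchange one substrate for another. In heart muscle the best known of them export ATP in return for ADP, bring in phosphate for ATP synthesis, feed fatty acids to oxidation as acylcarnitines and pass reducing equivalents through the malate-aspartate shuttle. Others carry amino acids, iron, cofactors or glutathione, and for several no substrate is agreed.

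Values are the deposited MAS5 signals, restated as log2(signal + 16). Differences are on that scale, where the change of a dim gene comes out too small, and were tested with limma over all 13110 genes. A gene passed at a Benjamini-Hochberg adjusted p under 0.05. Levels of different genes come from different probes and are not set against each other. All 10 cardiomyocyte markers were above the filter, and none of them passed between C3H and C57Bl/6 in limma. In that comparison 3 of them had an unadjusted p under 0.05, beside 3654 of all 13110 genes tested. Of 10 skeletal muscle markers, Myh1, Myh2, Myh4, Pvalb and Tnnt3 were below the filter. Of the other 5, Tnni2 was lower in C3H than in C57Bl/6 (-1.15, limma adjusted p = 0.0164), beside 8.4% of all genes. C3H replicate 4 stood apart in its poly-A control RNAs, which are added during labelling. They averaged 10.34 on that array, while the other C3H arrays lay between 8.79 and 9.05 and the C57Bl/6 arrays between 7.58 and 9.03. On the B6C3F1 arrays they lay between 8.36 and 8.65, below every C3H array. RNA integrity, read from the 3 prime and 5 prime Gapdh control sets as a ratio, was 0.90 ± 0.21 in B6C3F1, 0.60 ± 0.26 in C3H and 0.85 ± 0.24 in C57Bl/6 on the log2 scale (SD, n = 5 each). The part of these controls in the results was not tested beyond fits with each as a covariate. Calls that change without C3H replicate 4 are given both ways.

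Between C3H and C57Bl/6, 9 of the 39 members passed, 2 higher and 7 lower in C3H, beside a background of 15.6% of all genes tested (7.24% higher and 8.4% lower). The 2 higher were Slc25a29 and Slc25a40, and the 7 lower were Slc25a15, Slc25a34, Slc25a35, Slc25a37, Slc25a38, Slc25a47 and Slc25a51. Slc25a51 is counted by its brightest probe set, and another set of it passed the other way; without it 8 members passed, 2 higher and 6 lower. The median difference was -0.05 over the members and -0.02 over all genes. With each array centred on its median, which moved the median of all genes to 0.08, 3 members were higher and 4 lower. Slc25a42, a coenzyme A carrier, then passed (0.50, adjusted p = 0.039), while Slc25a15, Slc25a35 and Slc25a37 did not. With a block for replicate number in limma, Slc25a42 passed too (0.40, adjusted p = 0.0324). The arrays of C3H and C57Bl/6 did not overlap for 6 of the members: Slc25a29, Slc25a34, Slc25a38, Slc25a40, Slc25a47 and Slc25a51. Over all genes tested, 11.2% did not overlap. None of the 9 was a carrier of adenine nucleotides, phosphate, dicarboxylates, aspartate, glutamate or acylcarnitine, as the plot of differences by substrate shows. On the brightest sets limma gave 0 members of these groups an unadjusted p under 0.05, beside 3654 of all 13110 genes tested. Other sets of Slc25a12 and Slc25a20 did pass, as given below.

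**Figure D1:**
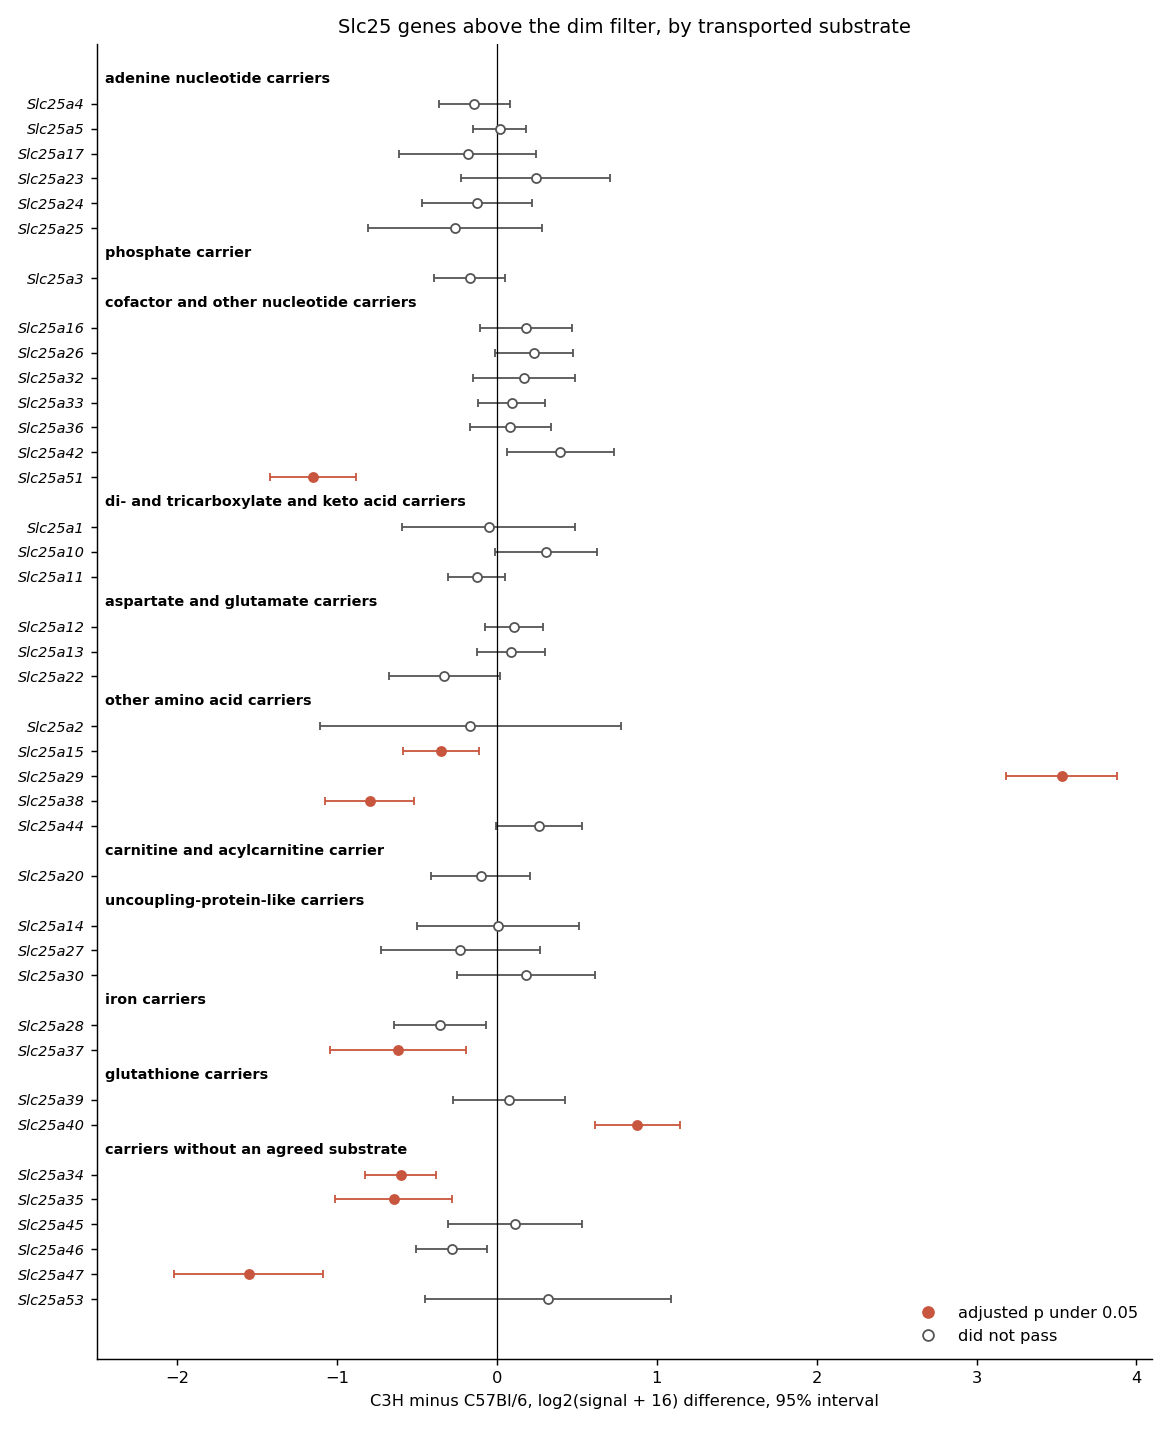
C3H minus C57Bl/6 difference on the log2(signal + 16) scale for the 39 Slc25 genes above the dim filter, grouped by transported substrate, with 95% intervals from limma; filled points passed at an adjusted p under 0.05. Slc25a29 lies alone at 3.53, and the 7 lower members lie between -1.55 and -0.35.

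Slc25a29, a carrier of basic amino acids and of ornithine, on chromosome 12, differed most. It read 11.32, 11.21, 11.28, 11.04 and 10.79 on the B6C3F1 arrays, 12.62, 12.39, 12.59, 13.35 and 12.36 on the C3H arrays, and 9.37, 9.34, 8.87, 9.26 and 8.81 on the C57Bl/6 arrays. The 3 groups did not overlap, with C3H highest, C57Bl/6 lowest and B6C3F1 between them. C3H was 11.6-fold higher than C57Bl/6 (difference 3.53 ± 0.17 SE, limma adjusted p = 5.44e-12). B6C3F1 was 3.99-fold higher than C57Bl/6 (2.00 ± 0.17 SE, adjusted p = 2.87e-07) and 2.90-fold lower than C3H (-1.54 ± 0.17 SE, adjusted p = 5.17e-06). The array at 13.35 is C3H replicate 4, and without it the C3H minus C57Bl/6 difference was 3.36 (adjusted p = 2.79e-12). The gene has 5 probe sets above the filter, and C3H was higher on each, by 1.26 to 3.53. Their size differed, since the set of the smallest difference averaged 9.39 in B6C3F1, 10.20 in C3H and 8.94 in C57Bl/6. B6C3F1 was lower than C3H on all 5 sets, but against C57Bl/6 it passed on 2 of them. On the other 3 sets B6C3F1 minus C57Bl/6 was 0.65, 0.45 and 0.46 (adjusted p over all probe sets 0.0645, 0.168 and 0.17).

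Slc25a47, a carrier known mainly from liver and without an agreed substrate, is the next gene on chromosome 12 and went the other way. It read 7.75, 8.02, 7.92, 7.95 and 7.68 in B6C3F1, 7.48, 7.43, 7.02, 6.20 and 7.36 in C3H, and 8.84, 8.34, 8.91, 8.99 and 8.18 in C57Bl/6. These 3 groups did not overlap either, with C57Bl/6 highest. C3H was 2.93-fold lower than C57Bl/6 (-1.55 ± 0.22 SE, limma adjusted p = 4.64e-05). Its lowest array is again C3H replicate 4, and without that array the difference was -1.33 (adjusted p = 3.87e-05). Only 1 probe set of the gene was tested, and it is of the type that can match several transcripts.

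Both genes lie on chromosome 12 on opposite strands, with start sites 15.3 kb apart in the RefSeq annotation of GRCm38.p6. Their promoter windows, 250 bases before to 50 after the start, are shown because these neighbours moved in opposite directions. The letters are those of the reference genome, which is C57BL/6J, and capitals mark CG dinucleotides. The first is chr12:108835827-108836126 on the minus strand and the second chr12:108850879-108851178 on the plus strand.
Slc25a29: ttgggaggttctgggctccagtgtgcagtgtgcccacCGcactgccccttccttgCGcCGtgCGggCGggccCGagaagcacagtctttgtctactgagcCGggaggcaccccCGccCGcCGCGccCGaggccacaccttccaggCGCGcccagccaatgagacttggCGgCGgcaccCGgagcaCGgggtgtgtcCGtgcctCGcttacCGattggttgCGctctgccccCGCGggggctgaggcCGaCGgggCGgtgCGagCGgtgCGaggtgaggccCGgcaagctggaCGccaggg
Slc25a47: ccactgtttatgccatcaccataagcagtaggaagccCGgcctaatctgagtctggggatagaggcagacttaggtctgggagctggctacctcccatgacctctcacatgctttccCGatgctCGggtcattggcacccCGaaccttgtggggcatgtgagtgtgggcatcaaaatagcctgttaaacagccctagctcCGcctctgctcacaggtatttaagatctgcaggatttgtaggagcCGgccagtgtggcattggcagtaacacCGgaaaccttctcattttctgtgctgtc
The Slc25a29 window holds 32 CG dinucleotides at 72.3% G and C, and 9.52% of the 32851 promoters in the table hold as many. The Slc25a47 window holds 7 at 53.3% G and C, and 52.1% hold as many, with a median of 7. Both strands of each window were searched for the estrogen-related receptor element TNAAGGTCA, the nuclear respiratory factor motif (GCGC, then NN, then GCGC) and the TATA box TATAAA, which occur in 1.28%, 6.23% and 13.6% of all promoters. None of the 3 was found in either window, nor was the receptor element in any of the 46 promoters of 36 Slc25 genes in the table. The respiratory factor motif was in 3 of the 46, 1 each of Slc25a3, Slc25a10 and Slc25a31, a share of 6.52%.

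The genes on either side also differed between the parental strains. Yy1, a zinc-finger transcription factor next to Slc25a29, read 11.56, 11.43, 11.40, 11.23 and 11.62 in B6C3F1, 11.83, 11.91, 11.98, 12.10 and 11.83 in C3H, and 11.34, 11.16, 11.36, 11.18 and 11.45 in C57Bl/6. C3H lay above both other groups on every array (0.63 above C57Bl/6, limma adjusted p = 5.43e-05), and B6C3F1 overlapped C57Bl/6. Wars, the tryptophan tRNA ligase beyond Slc25a47, was lower in C3H than in C57Bl/6 (-0.41, adjusted p = 0.0174). The next genes out, Degs2 (-0.11, adjusted p = 0.909) and Wdr25 (-0.75, adjusted p = 0.209), did not pass. Around the 10 members that passed in any comparison, 32 of the 40 nearest neighbours, 2 on each side, were tested and 10 passed between C3H and C57Bl/6, beside 15.6% of all genes. A gene near 2 members counts at each in that number, and Slc25a29 and Slc25a47 count for each other. Counted once and without members, 28 neighbours were tested and 6 passed. Other neighbours that passed were Adamts9 near Slc25a26 (-1.77, adjusted p = 1.83e-06), Magi1 near Slc25a26 (0.94, adjusted p = 0.02), Fblim1 near Slc25a34 (-0.82, adjusted p = 0.000234) and Cx3cr1 near Slc25a38 (-1.15, adjusted p = 0.02).

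**Figure D2:**
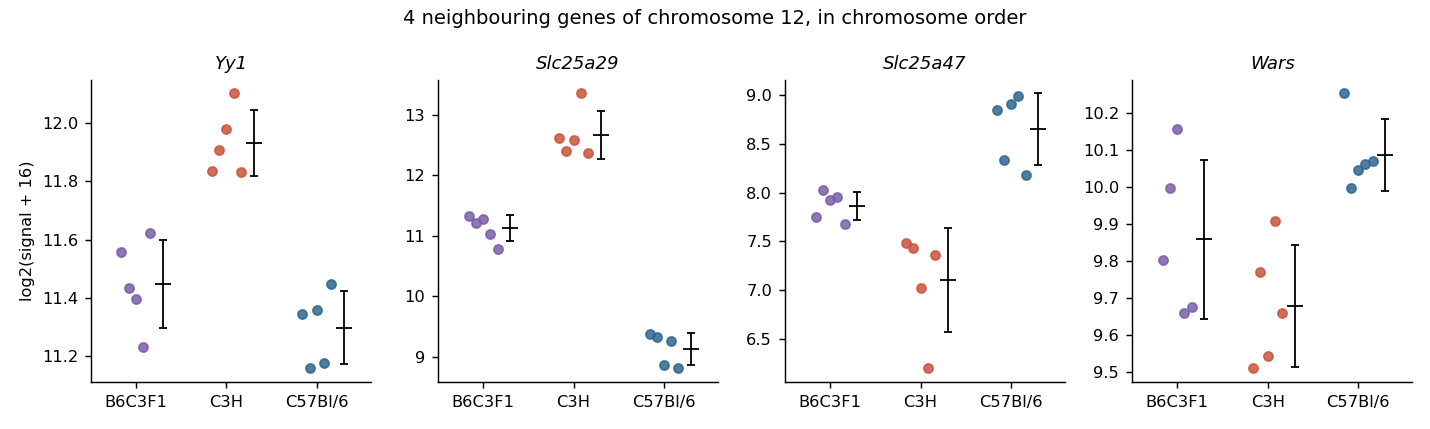
Values on log2(signal + 16) in B6C3F1, C3H and C57Bl/6 for 4 neighbouring genes of chromosome 12 in chromosome order; points are arrays, bars the mean and SD (n = 5), and each panel has its own axis. Slc25a29 is highest in C3H, at 12.36 to 13.35, and Slc25a47 is lowest there, at 6.20 to 7.48.

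Among the other amino acid carriers, Slc25a38 and Slc25a15 were lower in C3H. Slc25a38, which brings glycine into mitochondria for haem synthesis, read 9.24, 9.24, 9.25, 8.99 and 9.47 in B6C3F1, 8.72, 8.73, 9.22, 9.13 and 8.77 in C3H, and 9.61, 9.90, 9.80, 9.43 and 9.83 in C57Bl/6. C3H lay wholly below C57Bl/6 and was 1.74-fold lower (-0.80 ± 0.13 SE, limma adjusted p = 0.000218). Slc25a15, the ornithine carrier of the urea cycle, averaged 10.13 ± 0.04 in B6C3F1, 9.99 ± 0.22 in C3H and 10.34 ± 0.20 in C57Bl/6 (SD, n = 5 each). Its groups overlapped and its call was narrow (-0.35, adjusted p = 0.0442). It did not pass when any 1 of 10 arrays was left out: B6C3F1 replicates 1 to 4, C3H replicates 2, 3 and 4, and C57Bl/6 replicates 2, 3 and 5 (adjusted p 0.0541 to 0.133). Without C3H replicate 4 the difference was -0.28 (adjusted p = 0.126). Slc25a2 (-0.17, interval -1.11 to 0.77) and Slc25a44 (0.27, interval -0.00 to 0.54), a carrier of branched-chain amino acids, did not pass.

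Of the 7 cofactor and nucleotide carriers, Slc25a51 passed between the parents. Slc25a51, which brings NAD into mitochondria, read 11.65, 11.64, 11.58, 11.78 and 12.22 in B6C3F1, 11.71, 11.36, 11.21, 11.09 and 11.18 in C3H, and 12.58, 12.19, 12.55, 12.48 and 12.50 in C57Bl/6 on its brightest probe set. C3H lay wholly below C57Bl/6 and was 2.22-fold lower (-1.15 ± 0.13 SE, limma adjusted p = 2.15e-06). A second probe set of Slc25a51 gave the opposite order, at 11.28, 11.31, 11.48, 11.44 and 11.43 in B6C3F1, 11.95, 11.89, 11.66, 11.73 and 11.71 in C3H, and 11.23, 11.18, 11.17, 11.14 and 11.01 in C57Bl/6. There C3H lay wholly above C57Bl/6 (0.64, adjusted p over all probe sets 1.7e-05), so that no direction can be given for the gene as a whole.

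Slc25a26, which brings S-adenosylmethionine into mitochondria, also depended on the probe set. Its brightest set averaged 10.21 ± 0.21 in B6C3F1, 10.62 ± 0.20 in C3H and 10.39 ± 0.14 in C57Bl/6 and did not pass between C3H and C57Bl/6 (0.23, interval -0.01 to 0.48, adjusted p = 0.209). Its second set read 8.64, 8.68, 8.77, 8.62 and 8.63 in B6C3F1, 8.50, 8.99, 8.42, 8.74 and 8.87 in C3H, and 9.38, 9.25, 9.58, 9.26 and 9.59 in C57Bl/6. On that set both B6C3F1 (-0.74, adjusted p over all probe sets 0.00186) and C3H (-0.71, adjusted p 0.000535) lay wholly below C57Bl/6. The other 5 cofactor and nucleotide carriers, Slc25a16 (0.18, interval -0.10 to 0.47), Slc25a32 (0.17, interval -0.15 to 0.49), Slc25a42 (0.40, interval 0.06 to 0.73) and the pyrimidine nucleotide carriers Slc25a33 (0.09, interval -0.12 to 0.30) and Slc25a36 (0.09, interval -0.17 to 0.34), did not pass.

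In the glutathione pair, Slc25a40 passed and Slc25a39 did not. Slc25a40 read 9.63, 9.67, 9.64, 9.70 and 9.82 in B6C3F1, 10.20, 9.91, 10.20, 10.51 and 10.27 in C3H, and 9.37, 9.77, 9.30, 9.14 and 9.13 in C57Bl/6. C3H lay above both other groups and was 1.84-fold higher than C57Bl/6 (0.88 ± 0.13 SE, limma adjusted p = 5.03e-05). Slc25a39 averaged 14.67 ± 0.30 in B6C3F1, 14.49 ± 0.31 in C3H and 14.41 ± 0.33 in C57Bl/6 (SD, n = 5 each), with a C3H minus C57Bl/6 difference of 0.08 (interval -0.27 to 0.43). The difference of response between the 2 genes was not tested.

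Of the iron carriers, Slc25a37 (mitoferrin-1, which supplies iron to haem synthesis in developing red cells) was lower in C3H. It read 9.81, 9.42, 9.40, 8.94 and 9.73 in B6C3F1, 9.68, 9.27, 9.48, 8.80 and 10.05 in C3H, and 10.08, 9.93, 10.50, 10.15 and 9.73 in C57Bl/6. The groups overlapped (C3H minus C57Bl/6 -0.62 ± 0.20 SE, limma adjusted p = 0.0428). It did not pass without any 1 of 8 arrays: B6C3F1 replicates 2 and 3, C3H replicates 2, 3 and 4, and C57Bl/6 replicates 1, 3 and 4 (adjusted p 0.052 to 0.13). Without C3H replicate 4 the difference was -0.45 (adjusted p = 0.13). Its relative Slc25a28 (mitoferrin-2) did not pass with all arrays (-0.36, interval -0.64 to -0.07, adjusted p = 0.0929). It did pass without C3H replicate 4 (-0.44, adjusted p = 0.0412), without C57Bl/6 replicate 2 (-0.43, adjusted p = 0.0404) and with the poly-A signal as a covariate (-0.49, adjusted p = 0.0372). Alas2, the red cell enzyme of haem synthesis, was lower in C3H by the same test (-0.79, adjusted p = 0.0158). Of the 10 red cell markers listed, 5 were on the array and 4 were above the filter. Alas2 alone passed, beside 8.4% of all genes lower in C3H. Slc4a1 (-0.39), Hbb-b2 (-0.05) and Hba-a2 (0.33) did not pass. The summed signal of the 5 on the array includes Alas2, so it is not a separate measure. That sum ran from 10.93 to 11.48 in B6C3F1, from 10.35 to 11.64 in C3H and from 10.94 to 11.94 in C57Bl/6 on the log2 scale. The part of red cells in the Slc25a37 result was not tested, and in bulk tissue fewer cells of a type and less RNA per cell cannot be told apart.

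Of the carriers without an agreed substrate, 3 of the 6 tested were lower in C3H, beside 8.4% of all genes: Slc25a47, above, Slc25a34 and Slc25a35. Slc25a34 read 11.65, 11.88, 11.68, 11.77 and 11.43 in B6C3F1, 10.93, 11.22, 11.27, 11.53 and 11.30 in C3H, and 11.81, 12.03, 11.81, 11.85 and 11.75 in C57Bl/6. C3H lay wholly below C57Bl/6 and was 1.52-fold lower (-0.60 ± 0.11 SE, limma adjusted p = 0.000433). Slc25a35, a close relative of Slc25a34, averaged 8.20 ± 0.14 in B6C3F1, 7.85 ± 0.40 in C3H and 8.49 ± 0.23 in C57Bl/6 (SD, n = 5 each). Its C3H and C57Bl/6 arrays overlapped at 7.21 to 8.24 and 8.24 to 8.73 (-0.65 ± 0.18 SE, adjusted p = 0.0151). Its lowest value, 7.21, is C3H replicate 4, without which the difference was -0.49 (adjusted p = 0.042). With the poly-A signal as a covariate Slc25a35 did not pass (-0.41, adjusted p = 0.137). Slc25a45, Slc25a46 (-0.28, adjusted p = 0.0769) and Slc25a53 did not pass, though Slc25a46 did without C3H replicate 1 (-0.36, adjusted p = 0.0138). Slc25a46 also passed in limma after quantile normalization (-0.33, adjusted p = 0.0432) and with the Gapdh ratio as a covariate (-0.35, adjusted p = 0.0353).

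**Figure D3:**
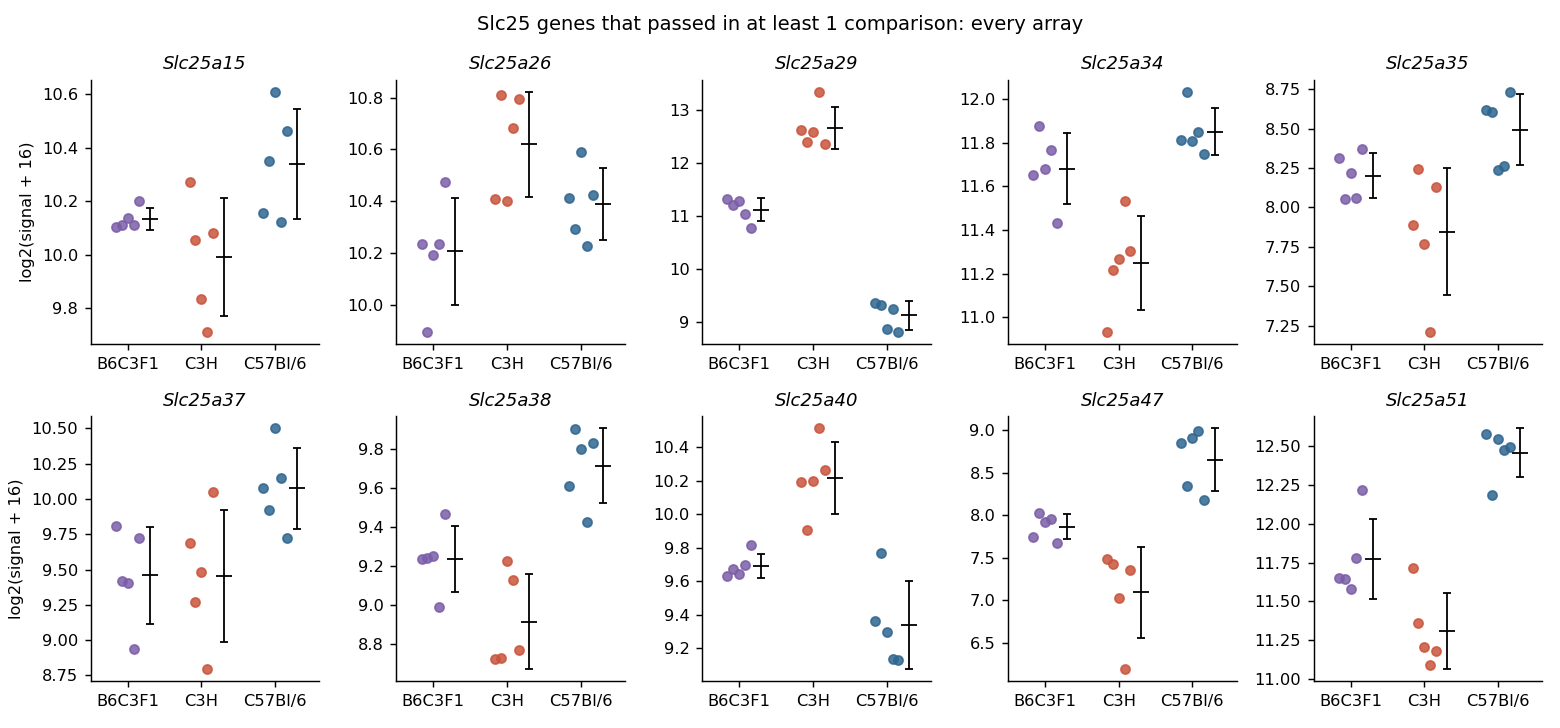
Values on log2(signal + 16) on every array in B6C3F1, C3H and C57Bl/6 for the 10 Slc25 genes that passed in at least 1 comparison; bars are the mean and SD (n = 5), and each panel has its own axis. The groups of Slc25a29 and of Slc25a47 do not overlap at all, while those of Slc25a15 and Slc25a37 do.

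On their brightest probe sets, the carriers best known for work in heart muscle did not pass between the parents. Other sets of Slc25a12 and Slc25a20 did, as given below. Slc25a4, the heart and muscle ADP/ATP carrier, averaged 16.09 ± 0.22 in B6C3F1, 15.97 ± 0.16 in C3H and 16.11 ± 0.13 in C57Bl/6 (SD, n = 5 each), a C3H minus C57Bl/6 difference of -0.14 (interval -0.36 to 0.08). Slc25a5, the ADP/ATP carrier of many tissues, differed by 0.02 (interval -0.15 to 0.18). The phosphate carrier Slc25a3 differed by -0.17 (interval -0.39 to 0.05). A p that misses the threshold does not show that the strains were alike, and the intervals give the differences that remain possible. The other 4 adenine nucleotide carriers tested, Slc25a17, Slc25a23, Slc25a24 and Slc25a25, did not pass either. The carriers that resemble uncoupling proteins did not pass, with C3H minus C57Bl/6 differences of 0.01 for Slc25a14 (interval -0.50 to 0.51), -0.23 for Slc25a27 (interval -0.73 to 0.27) and 0.18 for Slc25a30 (interval -0.25 to 0.61).

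The malate-aspartate shuttle uses Slc25a11, which exchanges malate for oxoglutarate, and the aspartate-glutamate carriers Slc25a12 and Slc25a13. Their C3H minus C57Bl/6 differences were -0.13 (interval -0.31 to 0.05), 0.11 (interval -0.07 to 0.29) and 0.09 (interval -0.13 to 0.30). Another, dim probe set of Slc25a12 passed (0.70, adjusted p over all probe sets 0.0336), averaging 6.26 in B6C3F1, 6.88 in C3H and 6.17 in C57Bl/6. None of the 4 shuttle enzymes Got1, Got2, Mdh1 and Mdh2 passed between C3H and C57Bl/6. In limma 1 of them had an unadjusted p under 0.05, beside 3654 of all 13110 genes tested. Slc25a22, a glutamate carrier, the citrate carrier Slc25a1 and the dicarboxylate carrier Slc25a10 did not pass.

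Slc25a20, which exchanges acylcarnitine for carnitine on the way to fatty acid oxidation, gave different answers by probe set. On its brightest set it averaged 13.66 ± 0.30 in B6C3F1, 13.64 ± 0.28 in C3H and 13.75 ± 0.23 in C57Bl/6, and C3H minus C57Bl/6 was -0.10 (interval -0.41 to 0.21). On the other set, of a type that can match several transcripts, it read 12.80, 12.81, 12.77, 12.84 and 12.89 in B6C3F1, 12.56, 12.43, 12.34, 12.33 and 12.57 in C3H, and 13.39, 13.15, 13.06, 13.11 and 13.09 in C57Bl/6. These groups did not overlap, with C3H lowest and B6C3F1 between (C3H minus C57Bl/6 -0.71, adjusted p over all probe sets 2.76e-06). B6C3F1 differed from C57Bl/6 by -0.34 (adjusted p 0.0275) and from C3H by 0.37 (adjusted p 0.00889) on that set. Cpt2, the enzyme that takes the acyl group from the carnitine inside the membrane, was lower in C3H than in C57Bl/6 (-0.39, adjusted p = 0.0151) and higher in B6C3F1 than in C3H (0.44, adjusted p = 0.0155).

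Of the 16 members with several probe sets above the filter, 11 had no set that passed between C3H and C57Bl/6. Slc25a29 passed on each of its sets, Slc25a51 passed in opposite directions on a pair of sets, and Slc25a12, Slc25a20 and Slc25a26 passed on a set other than the brightest. Of the other members that passed between C3H and C57Bl/6, none had a second set above the filter. Whether the probes of a set match the sequences of both strains alike was not tested.

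**Figure D4:**
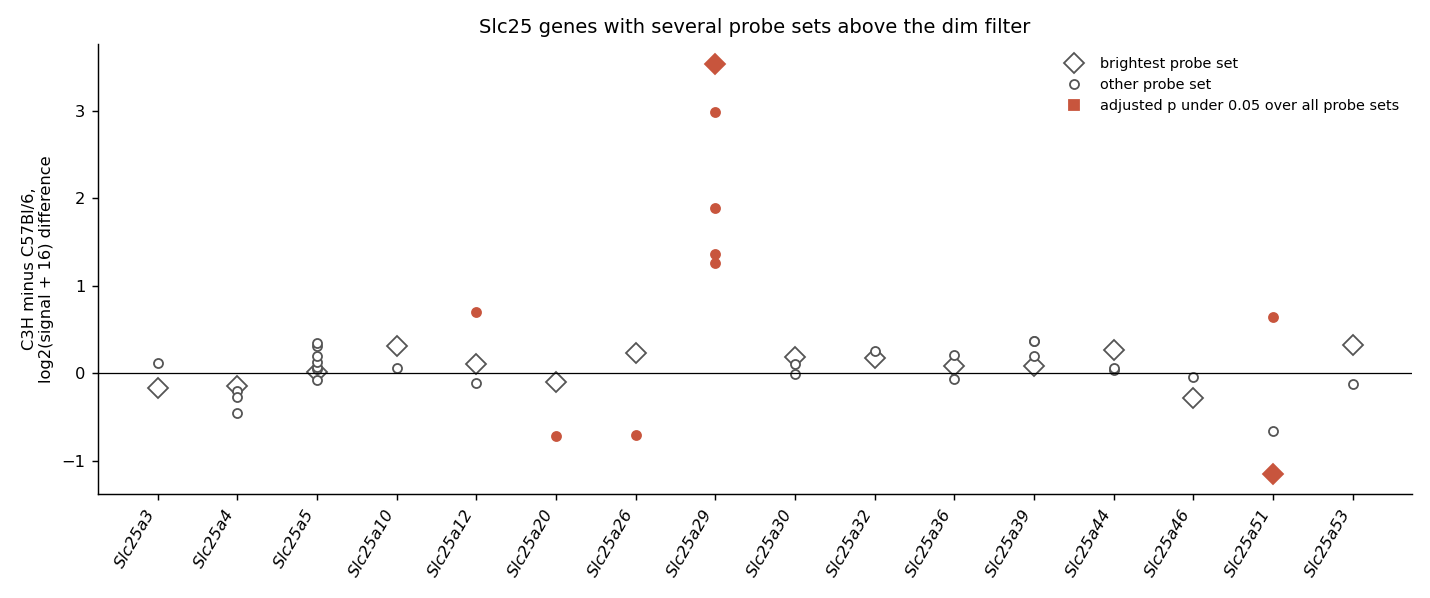
C3H minus C57Bl/6 difference on the log2(signal + 16) scale for every probe set above the dim filter of the 16 Slc25 genes that have several; diamonds mark the brightest set, and filled marks passed at an adjusted p under 0.05 over all probe sets. All 5 sets of Slc25a29 lie at 1.26 or higher, and Slc25a51 has passing sets at -1.15 and at 0.64.

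In the cross, 3 of the 39 members passed against C57Bl/6, beside 3.83% of all genes (2.05% higher and 1.78% lower): Slc25a29 was higher in B6C3F1, and Slc25a38 (-0.48, limma adjusted p = 0.0485) and Slc25a51 (-0.68, adjusted p = 0.00385) were lower. Against C3H 6 passed, beside 6.19% of all genes (3.59% higher and 2.61% lower). Slc25a34 (0.43, adjusted p = 0.0179), Slc25a47 (0.77, adjusted p = 0.0457) and Slc25a51 (0.46, adjusted p = 0.0362) were higher in B6C3F1, and Slc25a26 (-0.41, adjusted p = 0.0395), Slc25a29 (-1.54) and Slc25a40 (-0.52, adjusted p = 0.0163) were lower. These comparisons share arrays with the one between the parents, so that their calls are not independent of it. The Slc25a51 and Slc25a26 values are again those of the brightest probe set. On the second set of Slc25a51, B6C3F1 was lower than C3H (-0.40, adjusted p over all probe sets 0.00698) and did not pass against C57Bl/6 (0.24, adjusted p 0.124). On the second set of Slc25a26, B6C3F1 did not pass against C3H (-0.04, adjusted p 0.918). Slc25a47 was also below C57Bl/6 on every B6C3F1 array but did not pass there (-0.79, adjusted p = 0.0542).

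Several of these calls lay near the threshold and changed when 1 array was left out. Leaving out an array of the strain not compared changes the estimated spread but not the difference. Slc25a29 kept its calls in both comparisons, and Slc25a51 its call against C57Bl/6, whichever array was left out, on their brightest probe sets. Against C57Bl/6, Slc25a38 did not pass without B6C3F1 replicates 1, 2, 3 or 4, C3H replicate 2, or C57Bl/6 replicates 1, 2, 3 or 5 (adjusted p 0.0527 to 0.127). Its difference stayed between -0.55 and -0.41 whichever array was left out. Slc25a47 did pass against C57Bl/6 without C3H replicate 1 or 4 or C57Bl/6 replicate 2 or 5 (adjusted p 0.0129 to 0.0425), as did Slc25a40 without C57Bl/6 replicate 2 (0.46, adjusted p = 0.0242).

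Against C3H, without C3H replicate 4 only Slc25a29 and Slc25a34 passed. Slc25a40 lost its call against C3H without that array alone (adjusted p = 0.053), and Slc25a34 lost it without B6C3F1 replicates 2 or 4 (adjusted p 0.0517 to 0.0571). Slc25a47 lost it without any 1 B6C3F1 array, C3H replicates 3 or 4, or C57Bl/6 replicates 1 or 3 (adjusted p 0.0531 to 0.107). Slc25a51 lost it without B6C3F1 replicates 1, 4 or 5 or C3H replicates 2, 3, 4 or 5 (adjusted p 0.0508 to 0.101). Slc25a26 lost it without B6C3F1 replicates 1, 2, 3 or 4 or C3H replicates 2, 4 or 5 (adjusted p 0.0696 to 0.116). With each array centred on its median, no member was higher and 3 were lower in B6C3F1 than in C3H.

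The midparent lies halfway between the C3H and C57Bl/6 log2 means. None of the 39 members passed against it in limma, beside 0.633% of all genes (0.481% higher and 0.153% lower), and 2 had an unadjusted p under 0.05, beside 14.7% of all genes. These were Slc25a26 (-0.30, interval -0.51 to -0.09) and the folate carrier Slc25a32 (-0.33, interval -0.60 to -0.05). The place of the B6C3F1 mean on the line between C3H (1) and C57Bl/6 (0) was taken on log2 means of the brightest sets. Means of linear signals would give other places and were not used. It was 0.57 for Slc25a29, 0.51 for Slc25a47, 0.60 for Slc25a38, 0.60 for Slc25a51, 0.40 for Slc25a40 and 0.28 for Slc25a34. This place depended on the set. B6C3F1 lay nearer to C57Bl/6 on the second set of Slc25a51. The same held on the Slc25a29 sets where B6C3F1 did not pass against C57Bl/6. Slc25a37 lay at 1.00, at the C3H mean.

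Other genes of mitochondrial transport, given from a list of 51 of which 42 were tested, are set beside the family. Between C3H and C57Bl/6 4 were higher and 5 lower, a share of 21.4% beside 15.6% of all genes, with a median difference of -0.10. The higher ones were the outer membrane carrier-fold protein Mtch1 (0.34, limma adjusted p = 0.0243), the sideroflexin Sfxn4 (0.91, adjusted p = 0.000637), and the chaperone subunits of carrier import Timm8a1 (0.38, adjusted p = 0.00848) and Timm10b (0.59, adjusted p = 0.0362). The lower ones were the uncoupling protein Ucp3 (-0.65, adjusted p = 0.0186), the calcium uniporter regulator Micu3 (-0.69, adjusted p = 0.00683), the permeability pore component Ppif (-0.33, adjusted p = 0.0301), Timm29 of the carrier translocase (-0.40, adjusted p = 0.0333), and Cpt2. Between B6C3F1 and C57Bl/6, 4.76% of the 42 passed, beside 3.83% of all genes. Sfxn4 was higher in B6C3F1 and Timm9, another chaperone of carrier import, lower. Between B6C3F1 and C3H, 7.14% of the 42 passed, beside 6.19% of all genes. Cpt2 and Ucp3 were higher in B6C3F1 than in C3H, and Timm8a1 was lower.

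Marker genes of other cells of the heart moved beside these results. Of 10 endothelial markers, 9 had negative and 1 a positive difference between C3H and C57Bl/6, with a median of -0.43. Cdh5, Cldn5 and Esam passed as lower in C3H, beside 8.4% of all genes. In B6C3F1, Cdh5 and Cldn5 were higher than in C3H, beside 3.59% of all genes, and Egfl7 was lower than in C57Bl/6, beside 1.78%. The summed endothelial signal ran from 13.66 to 14.16 in B6C3F1, from 13.52 to 13.98 in C3H and from 13.91 to 14.21 in C57Bl/6. Of 10 fibroblast markers, 6 had positive and 4 negative differences between C3H and C57Bl/6, with a median of 0.07. Dcn, Lum and Tcf21 passed as higher in C3H, beside 7.24% of all genes. Between B6C3F1 and C57Bl/6, 9 of the markers were positive and 1 negative with a median of 0.53. Lum and Tcf21 passed there as higher in B6C3F1, beside 2.05% of all genes. The summed fibroblast signals were 15.69 to 15.87 in B6C3F1, 15.39 to 15.98 in C3H and 15.15 to 15.66 in C57Bl/6. Of 10 macrophage markers, Cd68 was higher in C3H than in C57Bl/6 (0.77, limma adjusted p = 0.0327), beside 7.24% of all genes. Adgre1 was lower in C3H than in C57Bl/6 (-0.62, adjusted p = 0.0165), beside 8.4%. Csf1r was higher in B6C3F1 than in C3H (0.50, adjusted p = 0.0332), beside 3.59%. The summed macrophage signal ran from 14.22 to 14.33 in B6C3F1, from 13.71 to 14.41 in C3H and from 13.76 to 14.37 in C57Bl/6. The 10 cardiomyocyte markers had a median difference of -0.20, with summed signals of 18.74 to 19.26 in B6C3F1, 18.69 to 19.12 in C3H and 18.91 to 19.29 in C57Bl/6. The 5 members below the filter averaged between 4.55 and 5.68 over the 15 arrays and were not tested. The part of cell makeup in the Slc25 differences was not tested.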

How the data were processed

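Heart apex RNA of 15 mice was measured on Affymetrix arrays, with each array labelled as a separate mouse. The deposited values are log2 signals of 45096 probe sets, made with MAS5 per the submitters' processing notes, whose version the sources used here do not give. The log2 step and the scaling were read from the values, whose linear 2% trimmed mean was 500.26 to 500.28 on every array. The arrays carry no read depth, so that their number limits the precision, with a median standard error of 0.16 for C3H minus C57Bl/6. Probe sets were named through the platform annotation, where 34940 had 1 symbol, 932 several and 9160 none given; the last 2 kinds and 64 controls were left out of the tests. Of the named sets 34736 matched the GRCm38.p6 gene table.

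The signals were made linear, 16 was added and log2 was taken. The dim filter removed probe sets whose mean lay below the 40th percentile (5.74). The probe set of highest mean stood for each gene, and 1453 genes rest on a set that can match several transcripts. All 15 arrays were fitted with limma 3.58.1 in R 4.3.3 (eBayes with an intensity trend), with Benjamini-Hochberg adjustment over 13110 genes. The procedure was tested on simulated data, but no result of that test is given here, so that no error rate follows from it. Replicate numbers did not pair the samples: of 15 same-numbered pairs, 2 had a correlation of deviations over 0.1 (-0.06 to 0.13). The labels give no hybridisation batch.

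The members, role groups, pathway and marker lists were chosen with earlier results of these data known. Named with values are members that passed in any contrast, the 5 of highest mean signal, and always Slc25a3, Slc25a4, Slc25a5, Slc25a11, Slc25a12, Slc25a13, Slc25a20 and Slc25a29; pathway genes are named where they passed. Other members and neighbours are named to account for the family, with their values seen. Alternatives covered the pseudocount, dim filter, normalization, probe set choice, eBayes settings, covariates, the replicate block and leaving out each array. Promoter sequences are from RefSeq; the array values name no genome build.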

Additional observations from a re-analysis of the deposited data

Results flagged for a closer look

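Among the 54 groups of 5 arrays (18 named members in 3 strains), 5 held an array far from the other 4, and chance gives this in about 1 in 20 groups. Slc25a29 read 13.35 on C3H replicate 4, while the other C3H arrays lay at 12.36 to 12.62. Slc25a51 read 12.19 on C57Bl/6 replicate 2, while the others lay at 12.48 to 12.58. Slc25a11 read 14.11 on C3H replicate 5, with the others at 13.76 to 13.77. Slc25a13 read 12.77 on B6C3F1 replicate 5, with the others at 12.38 to 12.44. Slc25a39 read 14.15 on B6C3F1 replicate 5, with the others at 14.70 to 14.92.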

How the results depend on the processing

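Over 29 alternatives the number of members that passed between C3H and C57Bl/6 ranged from 7 to 10 (main 9), and it ranged from 7 to 10 over the fits that left out 1 array. Slc25a29, Slc25a34, Slc25a38, Slc25a40 and Slc25a51 passed in all 29 and Slc25a47 in all 28 that held its probe set. Slc25a35 passed in 27, Slc25a37 in 16 and Slc25a15 in 11. No alternative moved Slc25a51 to its second probe set, on which C3H was higher than C57Bl/6 (0.64). For B6C3F1 minus C57Bl/6 (main 3) the count was 5 with only the arrays of the strains compared, and 2 to 4 with 1 array left out. For B6C3F1 minus C3H (main 6) it was 3 with arrays centred on their median, 3 without the intensity trend, 3 with the Gapdh ratio as a covariate, 2 with the poly-A signal as a covariate, 3 with only the arrays compared, and 2 to 6 with 1 array left out; the lowest counts came without B6C3F1 replicate 1 (3), 2 (3) or 4 (2) and C3H replicate 4 (2). The midparent count stayed at 0 in the 28 alternatives run for it; with only 2 strains it has no value. With the replicate block, although the numbers do not pair the mice, 9, 2, 4 and 0 members passed in the 4 comparisons. Without probe sets ending in _x_at or _s_at, Slc25a26 rests on its second set and reversed to -0.71 between C3H and C57Bl/6 (adjusted p = 0.000428); this is the change of probe set. Over the same alternatives the number of all genes called ranged from 1558 to 2271 (main 2050) between the parents, from 263 to 826 (main 502) against C57Bl/6, from 381 to 1115 (main 812) against C3H and from 41 to 210 (main 83) against the midparent. The cause of the other changes was not tested.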
